A study of Caenorhabditis elegans
Pristionchus pacificus with 6 samples.

Results

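Nuclear hormone receptor (nhr) genes were examined in RNA from the dissected anterior intestine of adult Caenorhabditis elegans hermaphrodites with reduced or normal intestinal ploidy. The members were the rows of the count table with identifiers from WBGene00003600 to WBGene00003720, a run of identifiers taken as the nhr family. The range spans 121 identifiers, of which 2 had no row, in a table of 73268 rows for 2 species. All rows of members lay in the first block of the table, taken as C. elegans. The run does not hold the whole family: the RefSeq gene table (WBcel235) lists 283 genes with an nhr symbol, and those outside it were not analysed here. Symbols were known for 4 members from the definition of the gene set: nhr-8 (WBGene00003607), nhr-25 (WBGene00003623), nhr-49 (WBGene00003639) and nhr-80 (WBGene00003670). Neither the count table nor the gene table pairs the remaining identifiers with symbols, so those members are given by identifier and without a role.

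Nuclear hormone receptors are transcription factors that bind DNA through zinc fingers and carry a domain able to bind small lipophilic molecules such as sterols and fatty acids. In nematodes the family is greatly expanded, and many members descend from an ancestor related to the vertebrate receptor HNF4. The C. elegans intestine digests food, stores fat, makes yolk and detoxifies. In this animal NHR-49 and NHR-80 are known regulators of fatty acid desaturation and fat use, NHR-8 of sterol handling and the response to toxins, and NHR-25 of moulting and epidermal development.

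There were 3 libraries of the reduced-ploidy strain, called CDK-2gut(-), and 3 of the control strain, numbered 1 to 3 in each. The CDK-2gut(-) strain had the transgene asp-1p::vhhGFP4::zif-1, in which the asp-1 promoter drives ZIF-1, a degradation adaptor, joined to a nanobody that binds GFP. Both strains, control included, carried the tagged kinase gene cdk-2::ZF::GFP and the mutation zif-1(gk117). Worms were grown at 20 °C and dissected 72 hours after egg lay. Lysates of dissected intestines were pooled, and a fixed amount of intestine lysate from a second nematode, Pristionchus pacificus, dissected at 96 hours, was added as a spike-in. No label states whether libraries of 1 strain derive from different cultures. The p-values then rest on library-to-library spread, part of which may be technical. Marker genes of the intestine and of other tissues could not be matched to identifiers, so the labelled tissue was not checked and carried-over RNA was not measured.

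CDK-2gut(-) libraries held 11273570 to 15874554 C. elegans counts and control libraries 9432973 to 10665065, so depth moved with the strain and the 2 cannot be told apart. P. pacificus counts were 2726310 to 4060591 in CDK-2gut(-) and 1761793 to 3618153 in control. C. elegans counts per P. pacificus count were 5.19, 4.61 and 2.78 in CDK-2gut(-) replicates 1 to 3. In control replicates 1 to 3 they were 5.35, 4.51 and 2.78, so this ratio followed the replicate number in both strains. The 10 genes with the highest mean count took 53.99% to 55.8% of C. elegans counts in CDK-2gut(-) and 60.4% to 66.4% in control, so all other genes together took a larger share in CDK-2gut(-). Levels below are given as CPM, a gene's counts scaled to the same C. elegans total in every library, and log2 folds are CDK-2gut(-) over control. CPM is not corrected for gene length, so levels of different genes are not compared. The main test was edgeR's quasi-likelihood test on C. elegans totals, with Benjamini-Hochberg adjustment over all 8505 C. elegans genes with at least 10 counts in 3 or more libraries, and a gene was called at an adjusted p under 0.05.

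Of the members with a row, 80 passed this filter, 24 had some counts but did not pass, and 15 had 0 counts in all 6 libraries. At least 10 counts were reached by 86, 79 and 77 members in CDK-2gut(-) replicates 1, 2 and 3, against 71, 78 and 72 members in the controls of the same numbers. The deepest library, CDK-2gut(-) replicate 1, thus had the most members at that level. Of the 80 members, 62 had at least 10 counts in all 6 libraries and 5 had them in exactly 3. Just inside the filter, WBGene00003718 had 6, 10 and 14 counts in CDK-2gut(-) and 9, 17 and 3 in control. Just outside it, WBGene00003620 had 15, 8 and 9 counts in CDK-2gut(-) and 9, 14 and 8 in control, and WBGene00003713 had 36, 8 and 15 against 4, 3 and 2. WBGene00003644 and WBGene00003677 were the 2 members that passed only through CDK-2gut(-) libraries, and 0 members passed only through control libraries. Both thus had to have higher raw counts in CDK-2gut(-), which favoured a difference in CPM too.

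Taken as 1 sum, all members held a similar share of C. elegans counts in both strains. The sum was 946, 884 and 868 CPM in CDK-2gut(-) replicates 1 to 3 and 823, 907 and 1019.9 CPM in control replicates 1 to 3. All 3 CDK-2gut(-) values lay inside the range of the controls. The means were 899 ± 41.5 CPM in CDK-2gut(-) and 917 ± 98.6 CPM in control (SD, n = 3 each), a ratio of 0.981. Because a few abundant genes took a smaller share in CDK-2gut(-), the sum was also taken as CPM of library sizes multiplied by TMM factors (trimmed mean of M-values), which centre on the bulk of C. elegans genes. On that scale it was 748, 763 and 826 in CDK-2gut(-) and 974, 932 and 1289.6 in control, with no overlap and a ratio of 0.731. Relative to P. pacificus counts, on the same scale, it was 4908, 4076 and 2409 in CDK-2gut(-) and 4409, 4092 and 2830.4 in control, a ratio of 1.01. In pooled tissue, fewer cells with a transcript and less of it per cell cannot be told apart.

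Most tested members lay close to their control level while the typical C. elegans gene stood higher in CDK-2gut(-). The median log2 fold of the 80 members was 0.024, with quartiles of -0.24 and 0.37. Over all 8505 genes it was 0.51, with quartiles of 0.048 and 1.05. Log2 folds above 0 were found for 42 of the 80 members (52.5%) and for 77.1% of all genes, and 67 of the 80 members lay below the median of all genes. Scaling by TMM moved the median of all genes by -0.40, to 0.10, and that of the members to -0.40. Scaling to the spike-in gave medians of 0.55 for all genes and 0.085 for the members. The members' median was therefore lower than that of all genes under each scaling, while its sign depended on the scaling. The same order was seen at every depth. Among genes with a mean of 300 counts or more it was 0.18 for 9 members and 0.41 for 1687 genes. At 100 to 300 counts it was -0.025 for 17 members and 0.46 for 1870 genes. At 30 to 100 counts it was 0.080 for 31 members and 0.54 for 2630 genes, and below 30 counts 0.025 for 23 members and 0.59 for 2318 genes. The set was chosen with results of these data known, so these are descriptions without a test.

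**Figure D1:**
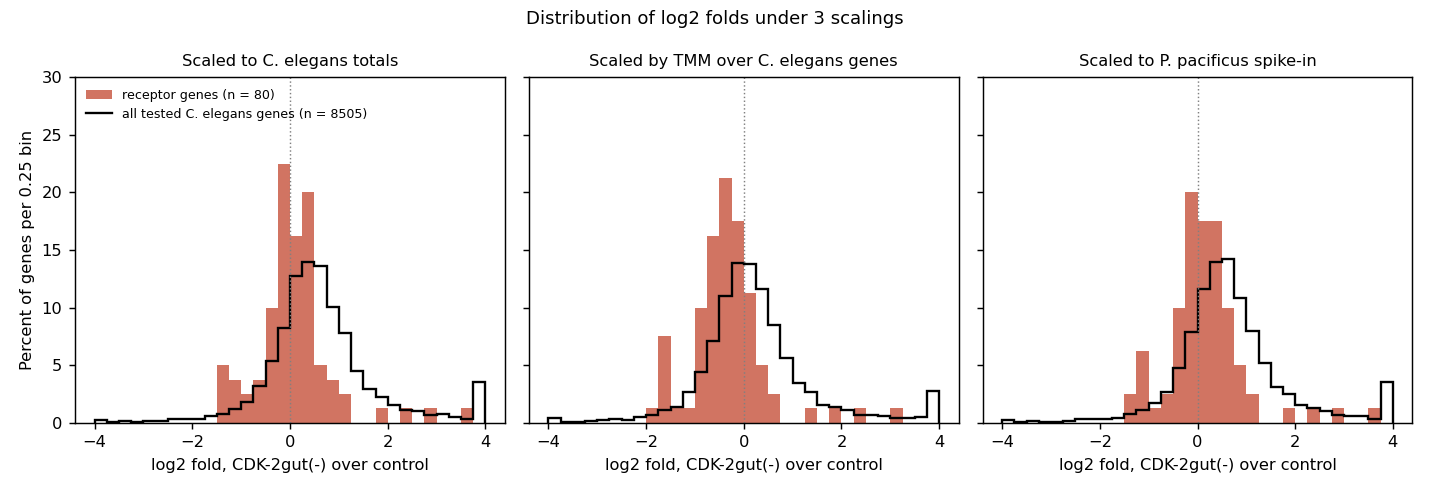
Percent of genes (y axis) per 0.25-wide bin of log2 fold, CDK-2gut(-) over control (x axis), for the 80 tested receptor genes (bars) and all 8505 tested C. elegans genes (line) under 3 scalings; the outermost bins pool folds beyond 4. The receptor genes sit left of all genes in each panel, with medians of 0.024 against 0.51, -0.40 against 0.10 and 0.085 against 0.55. A change of scaling moves both sets by nearly the same amount.

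By the test, 4 of the 80 members rose and 6 fell in CDK-2gut(-). Among all 8505 genes, 21.9% were called higher and 3.49% lower. With TMM scaling 3 members rose and 8 fell, against 11.8% and 6.65% of all genes. With spike-in scaling 3 rose and 2 fell, against 16.4% and 2.39%. That fit did not use the replicate numbers, which the ratio of the 2 species followed. Its biological coefficient of variation in edgeR was 0.477, and 0.407 with the numbers entered as a block. On C. elegans totals these were 0.424 and 0.411. With the block and the spike-in 4 members rose and 3 fell. A call missed in the main spike-in fit is therefore not read as no change. In all 3 scalings WBGene00003610 rose and WBGene00003704 and WBGene00003656 fell. WBGene00003644 and WBGene00003677 were also called higher in all 3, but passed the filter only through CDK-2gut(-) libraries, so nothing is read from their place in these counts. No member was called in opposite directions. A further 7 members were called in 1 or 2 scalings, and 68 in none. CPM in all 3 CDK-2gut(-) libraries exceeded all 3 controls for 17 of the 80 members, against 39.1% of all genes, and lay below them for 12 members, against 6.37%. The counts rested on single libraries. Calls over all genes were not counted in the fits that leave out a library. The moves below are therefore not read as particular to the members. Leaving out control replicate 3 gave 10 members higher and 4 lower on C. elegans totals, and leaving out any 1 CDK-2gut(-) library gave 1 higher and 2 lower. Without control replicate 1 it was 4 and 3, and without control replicate 2 it was 4 and 5. With TMM the number that fell was 13 without control replicate 2, and 3 and 5 without CDK-2gut(-) replicates 2 and 3. With the spike-in it was 0 without CDK-2gut(-) replicate 2 (edgeR; 3 at an unadjusted p under 0.05) and 1 without CDK-2gut(-) replicate 3 or control replicate 1 or 2. In each scaling the number that rose was 1 without any 1 CDK-2gut(-) library, partly because WBGene00003644 and WBGene00003677 then missed the filter.

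Of the members that rose, WBGene00003610 had the smallest adjusted p. It had 11.02, 8.27 and 10.02 CPM in CDK-2gut(-) (175, 104 and 113 counts) against 2.12, 1.59 and 2.39 CPM in control (20, 17 and 24 counts). The groups were far apart, at 9.77 ± 1.39 CPM and 2.03 ± 0.405 CPM (SD, n = 3 each). Its log2 fold was 2.26 ± 0.30 (SE; edgeR adjusted p = 0.00157), and 1.83 with TMM and 2.32 with the spike-in (edgeR adjusted p = 0.0058 and 0.0039).

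WBGene00003644 and WBGene00003677 were close to absent in control. WBGene00003644 had 41, 23 and 23 counts in CDK-2gut(-) replicates 1 to 3 (2.58, 1.83 and 2.04 CPM) against 3, 1 and 1 counts in control (0.318, 0.0938 and 0.0996 CPM). All 3 CDK-2gut(-) libraries lay above all controls. This gene and WBGene00003677 were tested only because their CDK-2gut(-) libraries reached 10 counts, so their p-values are given as a description. Summed over libraries and divided by C. elegans totals, its ratio was 13.2, with an exact 95% interval of 5.45 to 41.7 that covers counting error only. The fitted log2 fold was 3.60 ± 0.67 (SE; edgeR adjusted p = 0.00645), and 4.34 without control replicate 1. With TMM and the spike-in it was 3.19 and 3.63 (edgeR adjusted p = 0.0132 and 0.0122). WBGene00003677 had 74, 37 and 48 counts in CDK-2gut(-) (4.66, 2.94 and 4.26 CPM) against 6, 2 and 8 in control (0.636, 0.188 and 0.797 CPM). Its ratio was 7.54 (exact 95% interval 4.50 to 13.5, counting error only) and its log2 fold 2.86 ± 0.59 (SE; edgeR adjusted p = 0.0101). With TMM and the spike-in the fold was 2.41 and 2.93 (edgeR adjusted p = 0.0264 and 0.0137), and the TMM call was lost without control replicate 1 (edgeR adjusted p = 0.0925). With any 1 CDK-2gut(-) library left out, both genes had 10 counts in too few libraries to be tested.

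WBGene00003638 was called higher on C. elegans totals alone among the 3 main fits, though its fold was similar with the spike-in. It had 10.3, 7.79 and 9.58 CPM in CDK-2gut(-) and 5.09, 4.50 and 3.68 CPM in control, without overlap. The log2 fold was 1.06 ± 0.27 (SE; edgeR adjusted p = 0.024). The fold was 0.65 with TMM and 1.09 with the spike-in, where it was not called (edgeR adjusted p = 0.13 and 0.084). The call on C. elegans totals was lost without CDK-2gut(-) replicate 1, 2 or 3 (edgeR adjusted p = 0.104, 0.0667 and 0.0892).

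Among the members that fell, WBGene00003704 had the smallest adjusted p on C. elegans totals. It had 15.6, 15.03 and 17.5 CPM in CDK-2gut(-) against 40.0, 37.0 and 42.0 CPM in control, means of 16.04 ± 1.28 and 39.7 ± 2.51 (SD, n = 3 each). The groups were far apart relative to their spread. Its log2 fold was -1.31 ± 0.15 (SE; edgeR adjusted p = 0.000879), -1.72 with TMM and -1.27 with the spike-in (edgeR adjusted p = 0.000848 and 0.00605). The spike-in call was lost without CDK-2gut(-) replicate 2 (edgeR adjusted p = 0.0608).

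WBGene00003656 had 18.3, 18.0 and 13.4 CPM in CDK-2gut(-) and 31.3, 41.5 and 37.8 CPM in control. The lowest control, replicate 1, still lay above the highest CDK-2gut(-) library. Its log2 fold was -1.15 ± 0.20 (SE; edgeR adjusted p = 0.00453), -1.57 with TMM and -1.08 with the spike-in (edgeR adjusted p = 0.000703 and 0.0269). The spike-in call was lost without CDK-2gut(-) replicate 2 or 3 and without control replicate 1 or 2 (edgeR adjusted p = 0.122, 0.0648, 0.0728 and 0.0691).

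The other 4 members that fell did so on C. elegans totals and with TMM, and were not called with the spike-in. WBGene00003627 had 3.15, 1.35 and 3.19 CPM in CDK-2gut(-) and 7.42, 8.35 and 5.48 CPM in control, a log2 fold of -1.46 (edgeR adjusted p = 0.0361). WBGene00003697 had 1.95, 2.47 and 1.86 CPM in CDK-2gut(-) and 4.24, 4.97 and 5.88 CPM in control, a log2 fold of -1.26 (edgeR adjusted p = 0.033). Both groups were separate in both genes, at few counts: 17 to 50 per CDK-2gut(-) library for the first gene and 21 to 31 for the second. WBGene00003647 had 4.47, 7.71 and 7.45 CPM in CDK-2gut(-) and 12.3, 13.1 and 13.6 CPM in control, a log2 fold of -0.99 (edgeR adjusted p = 0.0322). WBGene00003658 had 74.0, 68.8 and 68.3 CPM in CDK-2gut(-) and 92.8, 100.2 and 116 CPM in control, a log2 fold of -0.55 (edgeR adjusted p = 0.0193). It was the smallest change called and rested on 770 to 1175 counts per library. With the spike-in the adjusted p of these 4 genes was 0.0743, 0.0884, 0.067 and 0.127 in the order given. There WBGene00003627 was called without control replicate 3 (edgeR adjusted p = 0.0224), and DESeq2 called WBGene00003627 and WBGene00003647 (adjusted p = 0.0429 and 0.0345). On C. elegans totals each of the 4 lost its call without any 1 CDK-2gut(-) library (edgeR adjusted p = 0.0642 to 0.114). Among controls, calls were lost without replicate 1 or 2 for WBGene00003627 (edgeR adjusted p = 0.0973 and 0.053), and without replicate 1 or 3 for WBGene00003697 (0.054 and 0.0699) and WBGene00003647 (0.0733 and 0.0596). With TMM, WBGene00003647 and WBGene00003658 lost their calls without CDK-2gut(-) replicate 2 (edgeR adjusted p = 0.0583 and 0.0624), and WBGene00003697 without CDK-2gut(-) replicate 1, 2 or 3 (0.0625, 0.0532 and 0.069).

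**Figure D2:**
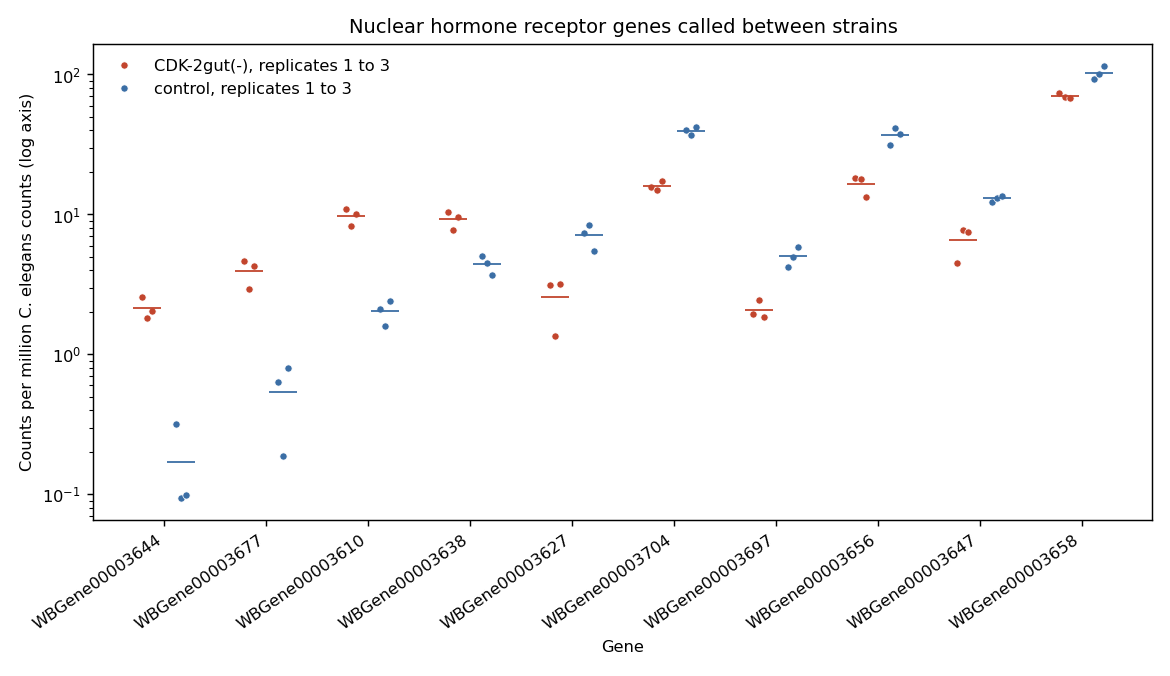
CPM on a log axis (y axis) for the 10 receptor genes called on C. elegans totals (x axis), CDK-2gut(-) left and control right of each gene; points are replicates 1 to 3 and horizontal lines the means. The 10 were chosen as called and without overlap of the groups, so the separation shown follows from the choice. The 2 genes at the left have 1 to 8 counts per control library and passed the filter only through CDK-2gut(-) libraries.

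With TMM 2 more members fell. WBGene00003695 had 3.40, 2.15 and 1.24 CPM in CDK-2gut(-) and 3.82, 6.28 and 5.88 CPM in control, with a TMM log2 fold of -1.67 (edgeR adjusted p = 0.0232). WBGene00003711 had 6.80, 4.53 and 5.41 CPM in CDK-2gut(-) and 7.95, 8.25 and 7.57 CPM in control, with a TMM log2 fold of -0.92 (edgeR adjusted p = 0.034). On C. elegans totals their log2 folds were -1.22 and -0.50, and neither was called (edgeR adjusted p = 0.0905 and 0.216). With TMM, WBGene00003695 lost its call without CDK-2gut(-) replicate 2 or 3 (edgeR adjusted p = 0.116 and 0.104). WBGene00003711 lost it without CDK-2gut(-) replicate 1, 2 or 3 (edgeR adjusted p = 0.0931, 0.179 and 0.129) and without control replicate 1 or 3 (0.0725 and 0.0508). These 2 genes were named after their values were seen.

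The 3 receptors with known intestinal roles, nhr-8, nhr-49 and nhr-80, were not called in any of the 3 scalings. For nhr-49, which in C. elegans controls fatty acid desaturation and oxidation, CPM was 64.2, 56.4 and 62.2 in CDK-2gut(-) (1019, 709 and 701 counts) and 33.1, 45.3 and 52.0 in control (312, 483 and 522 counts). The groups did not overlap, but the lowest CDK-2gut(-) library and the highest control were close. Its log2 fold was 0.49 ± 0.19 on C. elegans totals, 0.067 ± 0.22 with TMM and 0.57 ± 0.21 with the spike-in (SE; edgeR adjusted p = 0.0959, 0.89 and 0.0964). The TMM fold was -0.23 without control replicate 1, -0.17 without control replicate 2 and -0.085 by DESeq2, so its sign was not stable.

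For nhr-80, which works on the same desaturase genes, CPM was 62.1, 66.0 and 63.7 in CDK-2gut(-) and 40.7, 48.5 and 59.8 in control. Control replicate 3 came nearest to the CDK-2gut(-) libraries. The log2 fold was 0.36 ± 0.17 on C. elegans totals, -0.057 ± 0.21 with TMM and 0.44 ± 0.19 with the spike-in (SE; edgeR adjusted p = 0.153, 0.904 and 0.164), so its sign depended on the scaling. Without control replicate 3, nhr-49 and nhr-80 were both called on C. elegans totals, with log2 folds of 0.64 and 0.52 (edgeR adjusted p = 0.0329 and 0.0304). Without control replicate 1 the folds were 0.32 and 0.24 (edgeR adjusted p = 0.191 and 0.333).

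For nhr-8, the receptor known for sterol handling and toxin resistance, CPM was 109.7, 99.1 and 90.1 in CDK-2gut(-) and 91.1, 98.3 and 117 in control. The groups overlapped fully, with means of 99.6 ± 9.79 and 102 ± 13.5 (SD, n = 3 each). Its log2 fold was -0.036 ± 0.15 on C. elegans totals, -0.47 ± 0.18 with TMM and 0.037 ± 0.21 with the spike-in (SE; edgeR adjusted p = 0.894, 0.12 and 0.926). Without control replicate 2 it was called lower with TMM, at -0.74 (edgeR adjusted p = 0.0451). Transcripts of nhr-25, the moulting and epidermal receptor, were too few to pass the filter, at 12, 0 and 2 counts in CDK-2gut(-) and 7, 6 and 0 in control. Fitted without the filter, its log2 fold was -0.43 ± 1.40 on C. elegans totals and -0.81 ± 1.35 with TMM (SE; edgeR adjusted p = 0.878 and 0.746). With SEs this wide, a moderate difference in nhr-25 was not detectable at this depth.

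**Figure D3:**
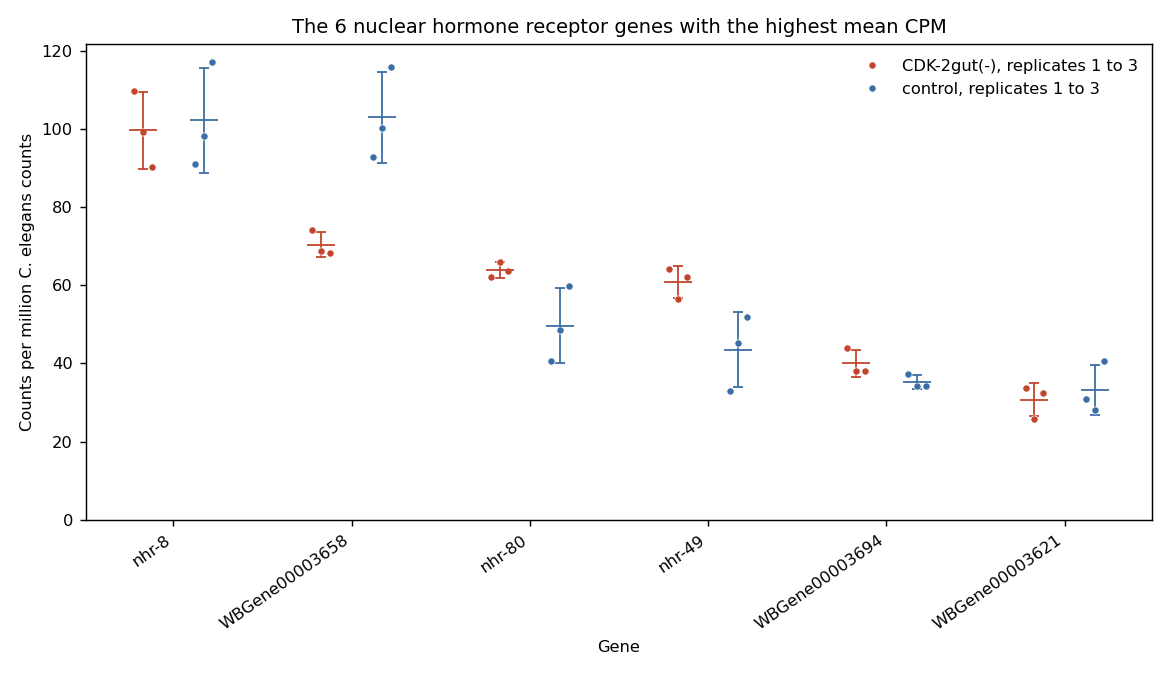
CPM (y axis) of the 6 receptor genes with the highest mean CPM (x axis), CDK-2gut(-) left and control right; points are replicates 1 to 3, and bars show the mean and SD (n = 3). Only WBGene00003658 was called among them; nhr-49 and nhr-80 lie higher in every CDK-2gut(-) library than in any control on this scale (the TMM log2 fold of nhr-80 was -0.057), and nhr-8 overlaps.

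WBGene00003694 and WBGene00003621 complete the 6 members with the highest mean CPM. WBGene00003694 had 43.9, 38.1 and 38.1 CPM in CDK-2gut(-) and 37.3, 34.2 and 34.2 CPM in control. Its fitted log2 fold was 0.18 ± 0.14 (SE; edgeR adjusted p = 0.397), and -0.24 with TMM. WBGene00003621 had 33.6, 25.8 and 32.6 CPM in CDK-2gut(-) and 30.8, 28.2 and 40.5 CPM in control, and its log2 fold was -0.11 ± 0.19 (SE; edgeR adjusted p = 0.726). With TMM it was -0.55 and not called (edgeR adjusted p = 0.166), but was called without control replicate 2 (0.0375). On the CPM scale the groups did not overlap in the first gene and overlapped in the second.

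**Figure D4:**
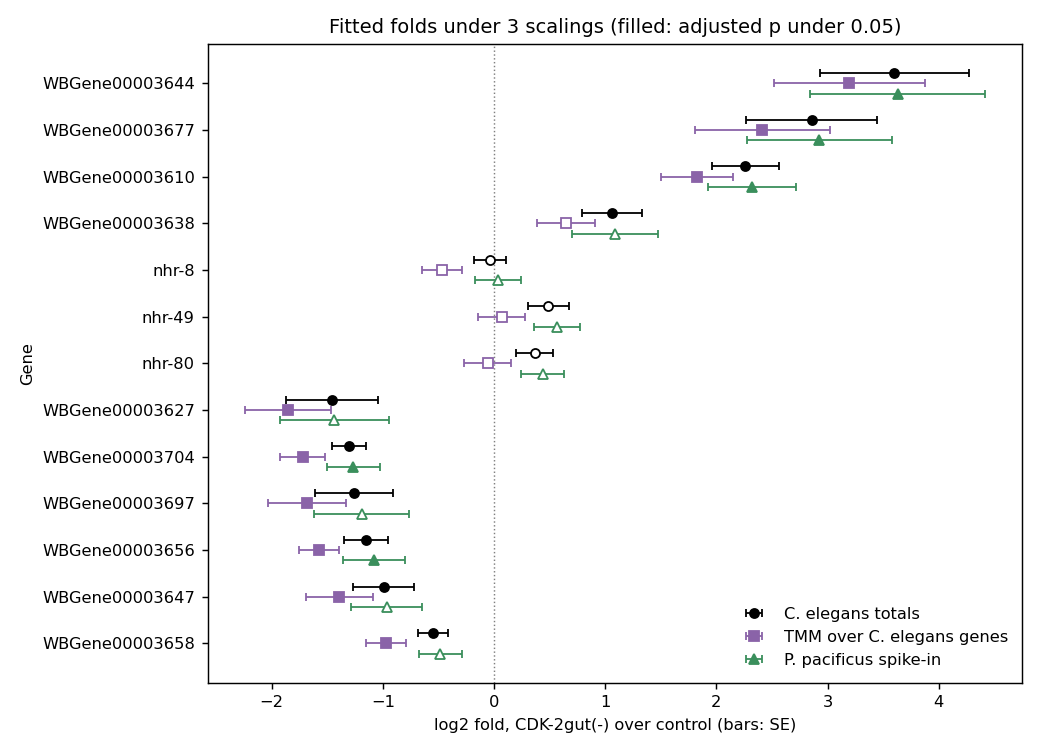
Fitted log2 folds, CDK-2gut(-) over control (x axis), of the 10 called receptor genes and of nhr-8, nhr-49 and nhr-80 (y axis) under 3 scalings; bars are SE and filled symbols mark an edgeR adjusted p under 0.05. TMM shifts every gene to the left, and 5 genes are filled under all 3 scalings. These include WBGene00003644 and WBGene00003677, which passed the filter only through CDK-2gut(-) libraries.

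On C. elegans totals the uncalled members, those described above included, mostly stayed close to their control level. With TMM the median log2 fold of the 80 tested members was -0.40, and 19 of them lay above 0. Of the 70 members not called on C. elegans totals, 55 had a log2 fold between -0.5 and 0.5, and the range was -1.27 to 1.76. A p that misses the threshold does not show that they were equal, since the median SE of the 80 members was 0.33. Beyond 1 in either direction lay 5 uncalled members at few counts, WBGene00003651, WBGene00003684, WBGene00003692, WBGene00003695 and WBGene00003702, named after their values were seen. The upper end was WBGene00003684, with 49, 43 and 39 counts in CDK-2gut(-) and 9, 3 and 17 in control (edgeR adjusted p = 0.0761).

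Within a strain the members varied more between control libraries than between CDK-2gut(-) libraries. The median distance between the highest and lowest library was 0.47 in CDK-2gut(-) and 0.65 in control on the log2 CPM scale, and control was wider for 57 of the 80 members. Over all tested genes these medians were 0.55 and 0.90. Libraries differed by more than 2 log2 units in CDK-2gut(-) for 1 member, and in control for 7 members (8.75%, against 21.5% of all genes). In 6 of these 7, control replicate 2 was the highest of the controls. The widest was WBGene00003616, with 1.89, 1.27 and 0.798 CPM in CDK-2gut(-) and 0.318, 3.84 and 0.398 CPM in control, named after its values were seen. Over all 80 members control replicate 3 was the highest control for 34, and control replicate 2 for 27. Which control was highest was not counted over all genes, and the part of control replicate 2 in these values was not tested.

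Some members lie next to each other in the count table, whose order is not stated to follow the chromosomes. Of the 80 tested members, 26 fell into 10 groups of rows at most 5 apart, and 3 of the 10 called members were in such groups. WBGene00003677, in row 431, stood beside WBGene00003682 in row 430 and WBGene00003712 in row 428. WBGene00003682 had 16.6, 14.8 and 15.2 CPM in CDK-2gut(-) and 7.74, 9.28 and 11.95 CPM in control, and WBGene00003712 had 12.9, 12.6 and 14.1 against 8.27, 7.97 and 10.5. Both were higher in every CDK-2gut(-) library without being called (log2 folds 0.68 and 0.57; edgeR adjusted p = 0.0684 and 0.0981). The same separation was found for 39.1% of all tested genes, whose median log2 fold was 0.51. With TMM the folds of these 2 members were 0.25 and 0.15 (edgeR adjusted p = 0.575 and 0.774). A link to the rise of WBGene00003677 was not tested. Neighbours did not always move alike: WBGene00003697, which fell, adjoined WBGene00003632, with a log2 fold of 0.33 (edgeR adjusted p = 0.38). The largest group, 5 members in rows 34434 to 34440, had log2 folds from -0.26 to 0.63 and no call. Strand use in counting is not stated. Reads from overlapping or antisense neighbours may be split between genes. Reads shared by near-identical copies within the family would be left out if multi-mapping reads were excluded, so such copies may count too low.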

How the data were processed

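The deposited table holds raw read counts of 2 species, unnormalized. The submitters' processing notes list STAR and featureCounts; their versions, the builds, the annotation and the strand setting are not stated. Multi-mapping reads were excluded, going by the table's name. Rows up to a boundary inferred in earlier work on these counts were taken as C. elegans. Members and lists were chosen with earlier results of these data known.

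Counts were tested with edgeR 4.0.16 (R 4.3.3), robust quasi-likelihood, without covariates, on 8505 genes with at least 10 counts in 3 of 6 libraries. Library sizes were C. elegans totals (main), those times TMM factors, or P. pacificus totals times their TMM factors. SE was derived from the fold and its F statistic. DESeq2 1.42.0 was an alternative. It took the same library sizes, except as the alternative to TMM, where it used its own median-of-ratios size factors. The fit on C. elegans totals was also run on counts simulated from its own fitted spread, with a common profile for all libraries apart from set changes. That run held no spike-in, and nothing is read from it here. Spread between libraries used a pseudocount of 0.5.

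Named genes are the 4 with symbols, the called members whose groups do not overlap, and the 6 with the highest mean CPM. Others fall outside this rule. Some are marked as named after their values were seen, and the rest are unmarked examples at the edge of the filter or in rows beside a called member. The lists of tissue markers and of other pathway genes were fixed by symbol and were not analysed, since 0 of 46926 gene table entries carry these identifiers. Replicate numbers were not taken as pairs.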

Additional observations from a re-analysis of the deposited data

How the results depend on the processing

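WBGene00003610 was called in all 40 fits run (3 scalings with their alternatives), WBGene00003704 in 38 and WBGene00003656 in 35. WBGene00003644 and WBGene00003677 were tested in 28 and called in 28 and 27. Both passed the main filter only through CDK-2gut(-) libraries, so nothing is read from their numbers of calls. The counts of members called moved as follows, and the cause was not tested, except that a stricter threshold cannot call more. Calls over all genes were not counted in these alternatives, so the moves are not read as particular to the members. On C. elegans totals, leaving out 1 library gave 1 to 10 higher and 2 to 5 lower, leaving out replicate 3 of both strains 1 and 2, and an adjusted p under 0.01 gave 2 and 2. With TMM these were 1 to 3 higher and 3 to 13 lower, 1 and 4, and 1 and 3. With the spike-in they were 1 to 4 higher and 0 to 3 lower, 1 and 2, and 1 and 1. With plain P. pacificus totals edgeR called 0 lower, with 3 at an unadjusted p under 0.05, as it did without CDK-2gut(-) replicate 2. DESeq2 with spike-in sizes called 4 lower. The TMM median of members was -0.40 and the log2 ratio of their sums -0.45, against -0.028 on C. elegans totals. Among named genes, signs turned for uncalled ones alone: nhr-80 (-0.057) and WBGene00003694 (-0.24) with TMM, and nhr-8 with the spike-in (0.037), also with the block (0.016). Leaving out 1 library gave log2 folds of -0.11 to 0.074 for nhr-8 (above 0 without control or CDK-2gut(-) replicate 3) and -0.22 to 0.055 for WBGene00003621 (above 0 without control replicate 3). Without replicate 3 of both strains they were 0.14 and 0.011. With TMM nhr-49 (0.067) turned to -0.23 without control replicate 1 and -0.17 without control replicate 2. It was -0.085 by DESeq2 with median-of-ratios factors in place of TMM. The TMM fold of nhr-80 lay above 0 without CDK-2gut(-) replicate 1 (0.058), control replicate 3 (0.15) or replicate 3 of both strains (0.16). With the spike-in nhr-8 was -0.13 without CDK-2gut(-) replicate 1, and WBGene00003621 turned from -0.048 to at most 0.061 in 4 alternatives.

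The replicate numbers were not taken as pairs. Libraries of the same number correlated at 0.15, -0.036 and 0.17 over C. elegans genes (deviations from strain means). Over P. pacificus genes they correlated at 0.79, 0.79 and 0.93. Numbers 1 and 2 did so across numbers (0.78 and 0.79), so this measure set only replicate 3 apart. Replicate numbers entered as a block gave the following: C. elegans totals 3 higher and 4 lower, TMM 3 and 6, and the spike-in 4 and 3; the median of members was 0.055 on C. elegans totals (this last fit was added after seeing the data). With the block, WBGene00003638, WBGene00003627 and WBGene00003697 were not called on C. elegans totals (edgeR adjusted p = 0.051, 0.0731 and 0.0772), nor WBGene00003695 and WBGene00003711 with TMM (0.0533 and 0.0636), while WBGene00003638 and WBGene00003658 were called with the spike-in (0.042 and 0.0453). The other filters and the other species boundary left each count of called members within 1.5 times its value.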
